A study of Mus musculus with 7 samples.

Results

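The regions described here are 1213 H3K27ac peaks of primary mouse chondrocytes that lie in gene deserts. They were chosen by the presence and position of a peak in replicate 1, so their number and scores are descriptions. A peak of chondrocyte H3K27ac replicate 1 was taken when its midpoint lay more than 200 kb from the transcription start site (TSS) of every transcript of every protein-coding gene (mm9, chromosomes 1 to 19 and X). Peaks within 100 kb of the first assembled base of a chromosome, and those at 98 to 99 Mb of chromosome 2, were left out. Of 25580 replicate 1 peaks, the 1213 desert peaks made up 4.74% (95% CI, 4.49–5.01; exact binomial, Clopper-Pearson). The remaining distal peaks, 13216 that lay at most 200 kb from a TSS and did not reach within 1 kb of one, served as the comparison and are called nearer distal peaks. A further 11124 peaks reached within 1 kb of a TSS and are called promoter peaks.

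The study used ChIP-Seq to search for distant enhancers of Sox9, which encodes the main regulator of cartilage formation. Rib chondrocytes of newborn mice gave 2 libraries for H3K27ac and 1 for H3K4me2. Dermal fibroblasts from the back skin of newborns, a control cell type, gave 1 for H3K27ac. H3K27ac was also mapped in rib chondrocytes of 2 genotypes, with 1 library each: wild type (WT), and mice homozygous for deletions of the Sox9 enhancers E160 and E308 (E160Δ/Δ E308Δ/Δ), called the deletion here. Mice of either sex were used without distinction, and the deletions were made by CRISPR in zygotes on a C57BL/6J background. The lists also differ in their lowest score, 50 in replicate 1, H3K4me2 and fibroblasts, 20 in WT and the deletion and 13 in replicate 2, and whether 1 threshold made them all is not known. None of the 6 lists analysed states how many reads it rests on, and sequencing depth is therefore unknown. With 1 library in every group but chondrocyte H3K27ac, no p-value is given, and the intervals reflect counting error alone, as if each peak were independent, and leave out the spread between animals or libraries.

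Active enhancers and promoters carry acetylated lysine on histone H3 (H3K27ac). Dimethylation (H3K4me2) is broader and also covers regulatory elements that are primed but not active. Gene deserts are long stretches without coding genes. Those beside developmental regulators are known to hold enhancers that act on the flanking gene over long distances, and the desert upstream of Sox9 is a well-known example in cartilage.

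The labels were checked against promoters of marker genes. Chondrocyte markers were marked at 6 of 9 promoters in replicate 1, 8 of 9 each in replicate 2, WT and the deletion, 7 of 9 for H3K4me2, and 1 of 9 in fibroblasts. Replicate 1 had no peak at the promoters of Sox9, Col2a1 and Matn1, and the 1 chondrocyte promoter marked in fibroblasts was that of Sox9. The fibroblast list marked 4 of 8 fibroblast promoters, namely Dpt, Pdgfra, Thy1 and Twist2, and had none at Col1a1, Col1a2, Col3a1 and Prrx1. WT and the deletion marked 7 of these 8 promoters each, replicate 2 and H3K4me2 6 each, and replicate 1 marked 3, so all chondrocyte lists but replicate 1 marked more of them than the fibroblast list. A peak missing from a list is therefore not a measure of missing acetylation. Markers of blood, endothelium, keratinocytes and muscle were unmarked in every H3K27ac list.

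A few of the desert peaks are shown to give a view of the sequence, at 300 bases around the midpoint on the plus strand of mm9. They are the 3 highest-scoring desert peaks of separate deserts over the whole list (beside Trps1, Zeb2 and Gm9747) and the highest-scoring ones of the deserts beside Runx1, Sox6 and Gm11678. The last of these deserts lies upstream of Sox9. Capitals mark matches, on either strand, to short motifs of factor families that act in cartilage or at enhancers. These were SOX (ACAATG or ACAAAG), AP-1 (TGANTCA), RUNX (TGTGGT), TEAD (GGAATG), the NFI half-site (TTGGC) and the E-box CAGCTG.
Peak between Trps1 and Eif3h (chr15:51423811-51424110): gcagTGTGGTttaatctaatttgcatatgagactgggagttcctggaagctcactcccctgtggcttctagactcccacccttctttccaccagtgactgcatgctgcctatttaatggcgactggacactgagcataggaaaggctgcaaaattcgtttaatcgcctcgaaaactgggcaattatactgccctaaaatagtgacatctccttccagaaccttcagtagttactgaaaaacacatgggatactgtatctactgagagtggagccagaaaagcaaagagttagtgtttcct
Peak between Zeb2 and Acvr2a (chr2:46298400-46298699): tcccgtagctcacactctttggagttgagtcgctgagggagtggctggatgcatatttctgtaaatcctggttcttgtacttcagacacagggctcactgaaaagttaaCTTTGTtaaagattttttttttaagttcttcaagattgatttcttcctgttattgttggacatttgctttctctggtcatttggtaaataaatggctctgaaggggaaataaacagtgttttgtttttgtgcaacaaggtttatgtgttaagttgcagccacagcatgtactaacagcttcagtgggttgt
Peak between 9430031J16Rik and Gm9747 (chr1:81900913-81901212): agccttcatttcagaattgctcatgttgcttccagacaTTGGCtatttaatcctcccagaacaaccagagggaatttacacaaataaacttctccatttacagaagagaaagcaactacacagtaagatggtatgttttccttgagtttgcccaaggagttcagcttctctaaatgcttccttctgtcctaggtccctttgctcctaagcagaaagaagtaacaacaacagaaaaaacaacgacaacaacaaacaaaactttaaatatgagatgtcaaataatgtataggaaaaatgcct
Peak between Runx1 and Setd4 (chr16:93387596-93387895): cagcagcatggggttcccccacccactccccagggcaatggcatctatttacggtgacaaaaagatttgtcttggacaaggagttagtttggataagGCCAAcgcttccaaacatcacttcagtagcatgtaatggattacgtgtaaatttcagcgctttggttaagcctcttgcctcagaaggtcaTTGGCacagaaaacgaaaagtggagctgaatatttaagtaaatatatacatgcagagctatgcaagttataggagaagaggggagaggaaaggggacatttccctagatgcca
Peak between Gm6816 and Sox6 (chr7:122703228-122703527): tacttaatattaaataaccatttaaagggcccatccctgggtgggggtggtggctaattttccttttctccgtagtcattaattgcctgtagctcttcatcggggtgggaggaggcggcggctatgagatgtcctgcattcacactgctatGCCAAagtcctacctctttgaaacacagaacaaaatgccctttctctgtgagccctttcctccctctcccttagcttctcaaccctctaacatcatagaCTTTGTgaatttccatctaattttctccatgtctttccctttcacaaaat
Peak between Kcnj2 and Gm11678 (chr11:112027688-112027987): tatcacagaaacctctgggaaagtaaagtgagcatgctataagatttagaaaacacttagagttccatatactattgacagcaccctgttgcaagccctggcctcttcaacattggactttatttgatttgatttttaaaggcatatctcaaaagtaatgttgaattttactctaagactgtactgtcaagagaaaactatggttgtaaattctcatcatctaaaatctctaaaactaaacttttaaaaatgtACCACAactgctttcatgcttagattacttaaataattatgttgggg

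Each window held 1 or 2 matches. The windows beside Trps1 and Gm11678 held a RUNX match each, the window beside Zeb2 held a SOX match, the window inside Sox6 a SOX and an NFI match, the window beside Gm9747 an NFI match, and the window beside Runx1 held 2 NFI matches. A match is a string of letters and not a shown binding site.

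Desert peaks were narrower and lower in score than nearer distal peaks. Their median width was 672 bp (interquartile range, 466–1108), against 778 bp (524–1332). The score, which ranks peaks within one list, had a median of 86.2 (interquartile range, 61.8–149.0) against 93.5 (63.8–161.8). The highest-scoring 10% of replicate 1 held 43 desert peaks, or 3.55% of them (2.58–4.75), and 3.94% of nearer distal peaks (3.62–4.29). Desert peaks also stood further apart, with a median gap of 22.5 kb to the next replicate 1 peak against 9.68 kb. A neighbour within 10 kb was found for 39.0% (36.2–41.8) of desert peaks and 50.8% (49.97–51.7) of nearer distal peaks. Most desert peaks were intergenic. The body of a protein-coding gene held 155 of them (12.8%; 10.95–14.8), against 54.3% of nearer distal peaks. An exon held 3 (0.247%), against 2.62% of nearer distal peaks. The genes with most desert peaks in their body were Auts2 with 9, Sox6 with 8 and Prkg1 with 6. The start of an annotated noncoding RNA lay within 1 kb of 10 desert peaks (0.824%), against 2.07% of nearer distal peaks.

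The peaks on either side of the threshold were as follows. The desert peaks nearest to 200 kb were 200.1 kb from Klf4, 200.2 kb from Mbnl3 and 200.4 kb from Dnahc7c, with scores of 170.9, 146.3 and 55.3. The nearest on the other side were 199.9 kb from Psat1, 199.8 kb from Ttc32 and 199.8 kb from Hlx, with scores of 106.1, 55.3 and 187.6.

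The genome held 1118 deserts by this rule, with a median length of 302 kb and 604.9 Mb in all, or 23.7% of the assembled sequence. Desert peaks occurred at 2.01 per Mb of desert, while the genome held 10.01 replicate 1 peaks per Mb. They were unevenly spread. Of the deserts, 411 (36.8%) held at least 1 desert peak, 177 held exactly 1, 68 held 5 or more and 17 held 10 or more, while 707 held none. The 73 fullest deserts, 6.53% of all, held 50% of the desert peaks. The 10 fullest held 183, or 15.1% (13.1–17.2), in 10.5 Mb, which is 1.74% of the desert sequence. Empty deserts were shorter, with a median length of 208 kb against 488.8 kb. Long deserts could also be empty. The longest, between Gm5591 and Gm16387, spanned 6.81 Mb and held no desert peak. By chromosome, the density was highest on chromosomes 13 (4.76 per Mb) and 10 (3.97), and lowest on chromosomes 6 (0.747) and X (0.353).

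The fullest desert lay on chromosome 10 between 5930403N24Rik and Lama4, which encodes a laminin chain of basement membranes. It held 26 peaks in 1.43 Mb, of which 22 carried H3K4me2, 19 a WT peak, 18 a deletion peak and 13 a fibroblast peak. The WT and deletion lists were also fullest in this desert, with 55 and 42 peaks. The second lay on the same chromosome between Nmbr and Cited2, a transcriptional coregulator, with 23 peaks in 2.56 Mb. Of these, 20 carried H3K4me2, 10 a WT peak and 6 a fibroblast peak. In the third, between 9430031J16Rik and Gm9747 on chromosome 1, 21 peaks stood in 0.756 Mb. There 18 carried H3K4me2, 12 a WT peak and 1 a fibroblast peak. The fourth lay between Adamts5, which encodes an aggrecan-cleaving protease, and N6amt1 on chromosome 16. It held 20 peaks, 16 with H3K4me2, 8 with a WT peak and 7 with a fibroblast peak. The deletion list had a peak at 1 of these 20, and 7 peaks in all in this desert. It had a peak at 8 of the 23 between Nmbr and Cited2 and 8 of the 21 beside Gm9747. Over all desert peaks the share was 32.0% for the deletion, 84.6% for H3K4me2, 48.9% for WT and 17.4% for fibroblasts.

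The fifth, seventh and eighth in rank lay beside Sox6, upstream of Sox9 and beside Runx1. Between Gm6816 and Sox6 on chromosome 7, 17 peaks stood in 0.497 Mb, and 8 of them lay inside the long Sox6 gene. Sox6 encodes a partner of Sox9 in the activation of cartilage genes. All 17 carried H3K4me2, 7 a WT peak, 5 a deletion peak and 1 a fibroblast peak. Between Kcnj2 and Gm11678 on chromosome 11, the desert upstream of Sox9 held 16 peaks in 0.966 Mb. Of these, 13 carried H3K4me2, 6 a WT peak, 3 a deletion peak and none a fibroblast peak, which 82.6% of all desert peaks also lacked. Between Runx1, which encodes a transcription factor of skeletal and blood cell development, and Setd4 on chromosome 16, 15 peaks stood in 0.362 Mb. Of these, 14 carried H3K4me2, 14 a WT peak, 10 a deletion peak and 2 a fibroblast peak. At 41.4 peaks per Mb this was the densest of the 68 deserts that held 5 or more. Peaks under 1 kb apart, as at 93092622–93093180 and 93093182–93094080 here, were counted separately. Joined over the whole list, they gave 1062 desert peaks in place of 1213. The density of single deserts was not computed again after joining. The remaining 3 of the 10 fullest lay between Myc and Gsdmc with 16 peaks, Zfp608 and Gramd3 with 15, and Plk2 and Actbl2 with 14. The last tied with the desert between Sox9 and Slc39a11, also with 14, and was placed first by its greater summed peak width. The 3 deserts had 3, 5 and 4 peaks shared with fibroblasts.

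Of the next densest, the first 2 were short deserts, and their counts include neighbouring peaks under 1 kb apart. Between Hivep2 and Gm10335, 6 peaks gave 38.3 per Mb, and between Foxc1, a transcription factor of skeletal and eye development, and Gmds 5 peaks gave 37.9 per Mb, all inside Gmds. Between Sox9 and Slc39a11, 14 peaks gave 36.7 per Mb. Between Rasgrp1 and Thbs1, which encodes a matricellular protein, 13 peaks gave 35.2 per Mb. WT and deletion chondrocytes had 39 and 33 peaks in that last desert.

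**Figure D1:**
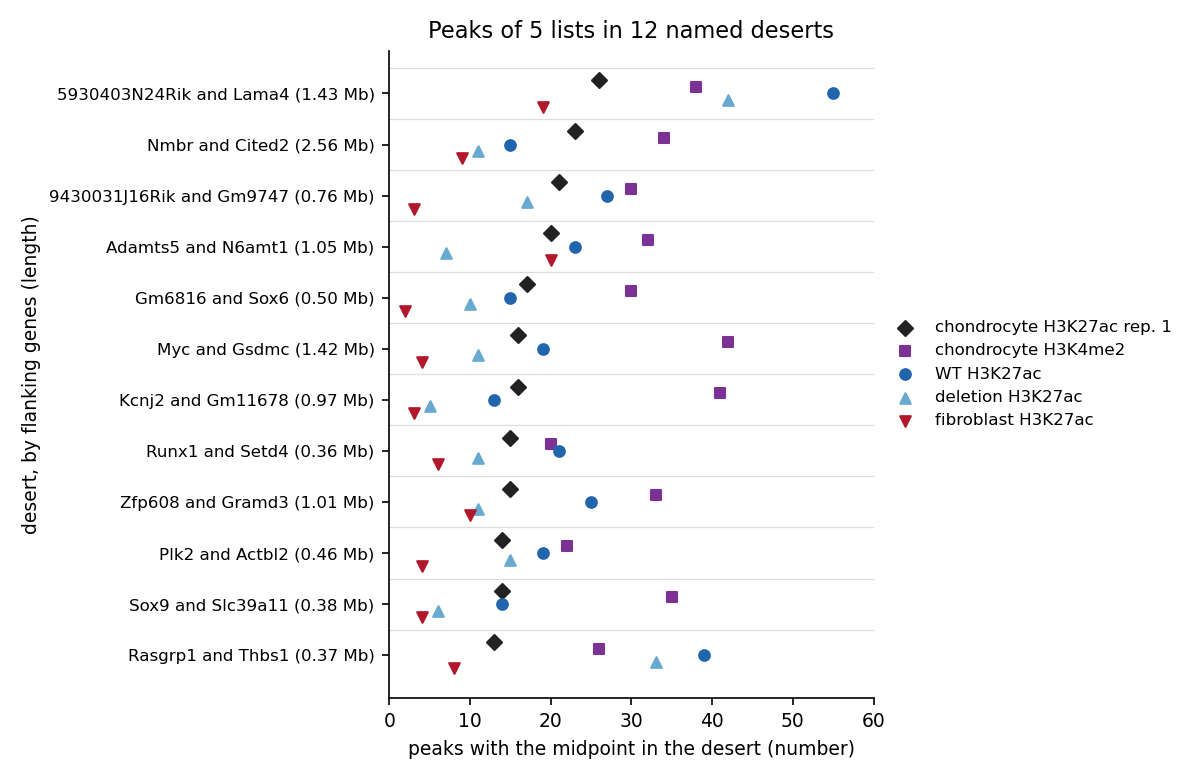
Number of peaks with the midpoint in each of 12 deserts (horizontal axis) for 5 lists, with the deserts named by their flanking genes and their length in Mb (vertical axis). Each point is 1 count. Counts compare deserts within a list, since the lists differ in length and format. WT reached 55 peaks beside Lama4, and the fibroblast list held 2 or 3 in the deserts beside Sox6, Gm11678 and Gm9747.

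The desert upstream of Sox9 was looked at peak by peak, since the study was about this gene. The replicate 1 peak at E308 had its midpoint 309.1 kb upstream of Sox9, but 41.5 kb from the TSS of Gm11678, an annotated coding gene, and so is not one of the desert peaks. The 16 desert peaks lay between −1129.0 and −615.7 kb from the Sox9 TSS, where negative values are upstream, with scores from 61.2 to 456.1 and a median of 105.3. The highest-scoring, a peak of 2282 bp at chromosome 11, 112026697–112028978, was intergenic and at −615.7 kb. It ranked in the top 6.24% of replicate 1 and overlapped an H3K4me2 peak, but no WT, deletion or fibroblast peak. It had a partner in replicate 2 at the same distance from Sox9, to within 1 kb. The length of this desert was not matched between the genome versions of the replicates. The second highest, chosen after its values were seen, was a peak of 2043 bp at 111696605–111698647, at −945.9 kb, with a score of 300.9, and it was matched in H3K4me2, WT, the deletion and replicate 2. The other 2 peaks with a deletion peak lay at −1097.0 and −660.1 kb. On the other side, the 14 desert peaks between Sox9 and Slc39a11 lay 304 to 510 kb downstream of the Sox9 TSS. Their highest score was 346.6 (a peak also chosen after its values were seen), at chromosome 11, 112992748–112993942, which is intergenic and overlapped H3K4me2, WT and deletion peaks. Here 3 of the 14 had a fibroblast peak.

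Beside Runx1, WT chondrocytes had a peak at 14 of the 15 desert peaks, and the exception was the highest-scoring one. It spanned 2061 bp at chromosome 16, 93386716–93388776, is intergenic and lay 200.9 kb from the TSS of Setd4. Its score was 357.7, in a range from 63.5 in this desert. The peak overlapped H3K4me2 and had a partner in replicate 2, as did 9 of the 15. Inside Sox6, the highest-scoring desert peak spanned 2809 bp at chromosome 7, 122701974–122704782, in an intron. Its score was 246.4, the highest of the 17, and it had an H3K4me2 and a WT peak but no deletion or fibroblast peak.

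**Figure D2:**
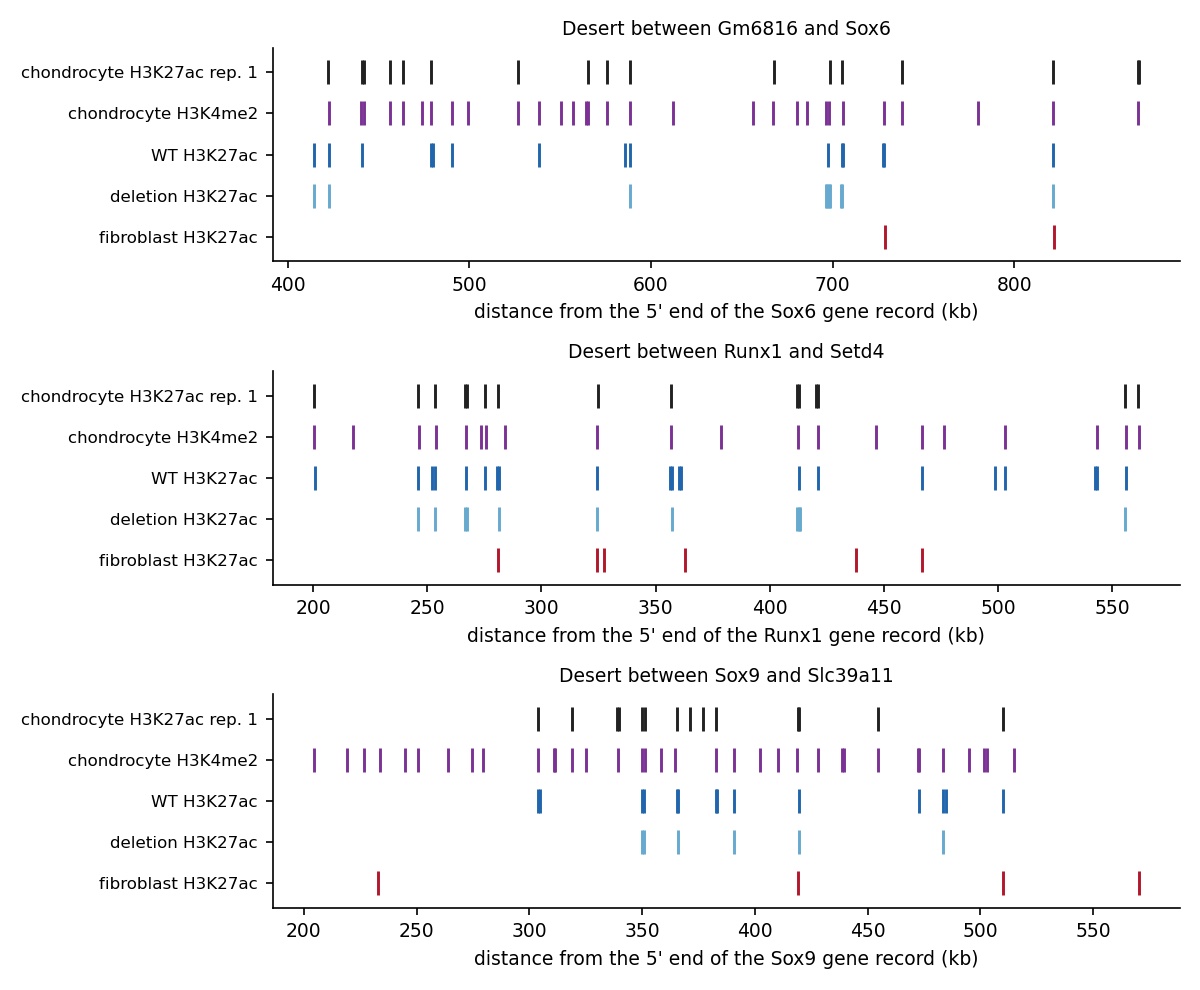
Position of every peak midpoint of 5 lists (rows, 1 tick a peak) in the deserts beside Sox6, Runx1 and Sox9, with the distance in kb from the 5′ end of the named gene's record on the horizontal axis. Replicate 1 had 17, 15 and 14 peaks there, H3K4me2 30, 20 and 35, and fibroblasts 2, 6 and 4.

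The highest-scoring desert peaks of the whole list were shared between lists. The 5 highest were beside Trps1 and Eif3h (chromosome 15, 51422343–51425578, score 890.7), Zeb2 and Acvr2a (chromosome 2, 46296901–46300199, 859.2), 9430031J16Rik and Gm9747 (chromosome 1, 81900002–81902123, 838.5), and at 2 places between Myc and Gsdmc (chromosome 15, 62158786–62161486, 771.9, and 62399489–62402260, 679.8). All 5 are intergenic and had H3K4me2, WT and deletion peaks. The peak beside Gm9747 alone had no fibroblast peak. The 3 highest with a fibroblast peak were those beside Trps1 and Zeb2 and the higher of the 2 beside Myc. The highest-scoring peaks of the other 5 fullest deserts scored 425.8 beside Lama4, 323.9 between Nmbr and Cited2, 581.9 beside Adamts5, 415.2 beside Zfp608 and 233.5 beside Plk2. All had H3K4me2, WT and deletion peaks, and all but the one beside Lama4 had a fibroblast peak. The 3 highest without any other mark scored much lower, at 163.8 between 4930468A15Rik and Tbl1x on chromosome X, 158.6 between Nmbr and Cited2, and 141.8 in an intron of Dcc on chromosome 18.

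The shares of desert peaks that overlapped a peak of another list, by at least 1 bp, were then compared with those of nearer distal peaks. H3K4me2 marked nearly the same share of both. In desert peaks it was found at 1026 of 1213, or 84.6% (82.4–86.6), and in nearer distal peaks at 86.4% (85.8–87.0), where it marked 90.2% of all replicate 1 peaks. The difference of −1.83 percentage points had an interval (Newcombe, 95%) from −4.05 to 0.18. The H3K4me2 list was the longest and covered 0.759% of the desert bases.

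Fibroblast H3K27ac was rarer at desert peaks. It was found at 211, or 17.4% (15.3–19.7), against 26.7% (25.9–27.5) of nearer distal peaks, and 51.7% of all replicate 1 peaks. The difference was −9.31 percentage points (−11.5 to −6.95). The fibroblast list covered 0.0988% of desert bases. Desert peaks with H3K4me2 and no fibroblast peak numbered 836, or 68.9% (66.2–71.5), against 61.9% (61.1–62.7) of nearer distal peaks.

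The other chondrocyte H3K27ac libraries differed in the same direction. WT chondrocytes had a peak at 593 desert peaks, or 48.9% (46.0–51.7), against 61.4% (60.6–62.3) of nearer distal peaks and 75.4% of all replicate 1 peaks. The difference was −12.6 percentage points (−15.5 to −9.63). The deletion list had a peak at 388, or 32.0% (29.4–34.7), against 46.0% (45.1–46.8) of nearer distal peaks and 64.6% of all, a difference of −14.0 (−16.7 to −11.2). The share was thus lower at desert peaks for chondrocyte libraries of the same mark as well as for fibroblasts. In all, 116 desert peaks (9.56%; 7.97–11.4) were found in all 4 other lists, against 18.9% (18.3–19.6) of nearer distal peaks. In none of the 4 were 132 (10.9%; 9.19–12.8), against 7.42% (6.97–7.88). These 132 were the weakest group, with a median score of 61.3 and a median width of 423 bp. The 116 had medians of 171.8 and 1293 bp. The most common pattern was H3K4me2 alone, at 437 desert peaks (36.0%), followed by H3K4me2 with WT and deletion peaks and no fibroblast peak, at 248 (20.4%).

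The share with a WT peak was lower in the more distant classes of desert peaks. From 200 to 300 kb, 52.5% (48.1–56.8) of 528 desert peaks had a WT peak, from 300 to 500 kb 48.8% (44.0–53.7) of 432, and from 500 to 1000 kb 46.4% (39.5–53.4) of 209, with intervals that overlap. Beyond 1000 kb it was 18.2% (8.19–32.7) of 44. H3K4me2 was found at 33 of these 44 (59.7–86.8%) and fibroblast H3K27ac at 9.09% (2.53–21.7). The 44 came from 19 deserts, and 9 of them from the desert between Nmbr and Cited2. The most distant one lay 1635 kb from the nearest TSS, between 4930555F03Rik and Aga. Against nearer distal peaks 50 to 200 kb from a TSS alone, desert peaks were also lower, with differences of −6.33 points (−8.77 to −3.74) for fibroblasts, −10.1 (−13.3 to −6.91) for WT, −11.6 (−14.6 to −8.52) for the deletion and −3.71 (−6.06 to −1.52) for H3K4me2.

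**Figure D3:**
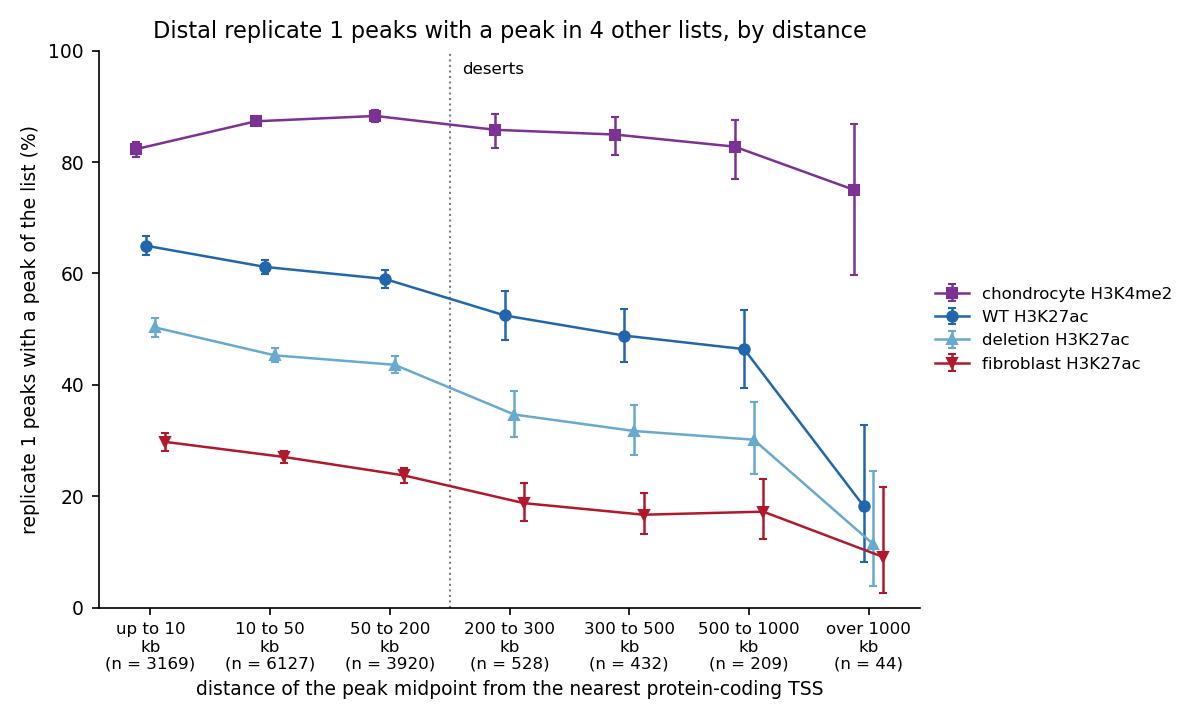
Share of distal replicate 1 peaks that overlap a peak of each of 4 lists (vertical axis, %), by the distance of the midpoint from the nearest protein-coding TSS (horizontal axis), with exact binomial 95% intervals. The dotted line marks 200 kb. H3K4me2 was 88.3% from 50 to 200 kb and 82.8% from 500 to 1000 kb, while WT fell from 65.0% up to 10 kb to 18.2% beyond 1000 kb.

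Since desert peaks were narrower and scored lower, the shares of nearer distal peaks were weighted to the desert peaks' spread over quintiles of score and of width. The differences were then −1.55 points for H3K4me2, −7.86 for fibroblasts, −8.13 for WT and −9.48 for the deletion. In the highest quintile of scores, which held 215 desert peaks, H3K4me2 was found at 98.6% (95.98–99.7) of them and at 97.0% (96.3–97.7) of nearer distal peaks. In the same quintile a fibroblast peak was found at 30.2% (24.2–36.9) against 49.8% (47.9–51.8). That gap of −19.6 points (−25.7 to −12.9) was the widest of the 5 quintiles for fibroblasts. The corresponding WT gap was −6.98 points (−12.8 to −2.24), its narrowest. In the lowest quintile the fibroblast gap was −4.20 points (−7.43 to 0.048) and the WT gap −9.35 (−14.8 to −3.40). Whether the fibroblast and WT gaps differ from each other was not tested.

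**Figure D4:**
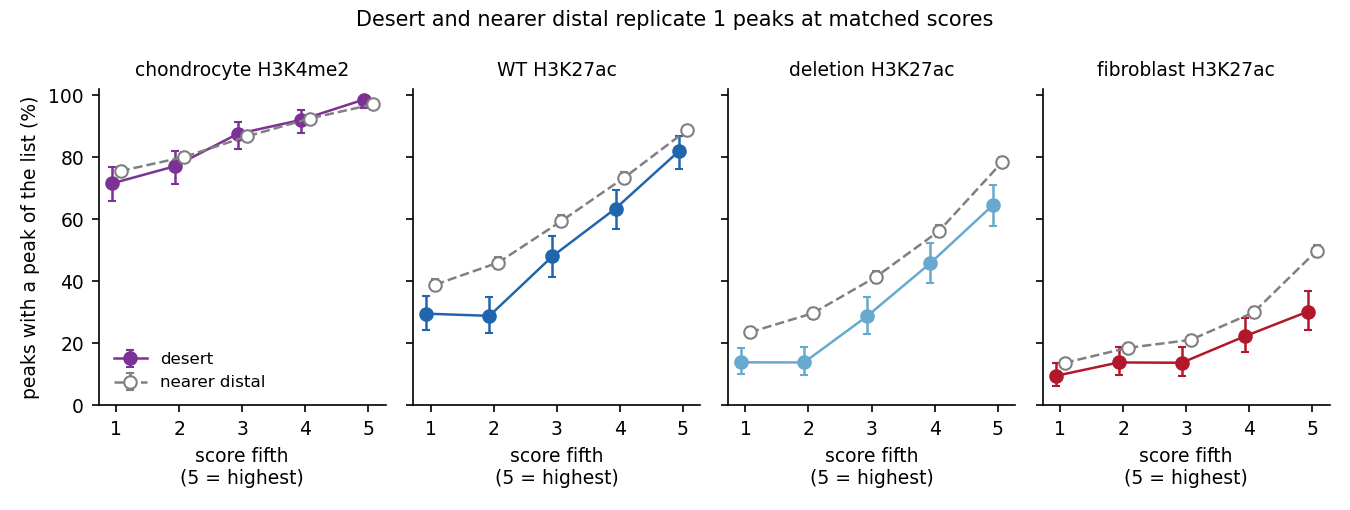
Share of peaks that overlap a peak of each list (vertical axis, %) in quintiles of the replicate 1 score over all distal peaks (horizontal axis, 5 the highest), for desert peaks (filled, solid) and nearer distal peaks (open, dashed), with exact binomial 95% intervals. In the highest quintile the fibroblast share was 30.2% in deserts and 49.8% nearer to genes, and the H3K4me2 shares were 98.6% and 97.0%.

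The deletion was also compared with WT at the same peaks. Of the 593 desert peaks with a WT peak, 387 had a deletion peak, or 65.3% (61.3–69.1), against 74.3% (73.3–75.2) of 8121 nearer distal peaks. The difference was −9.02 points (−13.1 to −5.17). The WT partners of desert peaks had a lower median score, 137 against 172, and a lower median fold enrichment, 6.88 against 7.95. Weighted to the same quintiles of WT score, the difference was −2.66 points. When WT peaks themselves were taken by the same rule, 1501 lay in deserts, and 45.2% (42.7–47.8) of them had a deletion peak, against 49.4% (48.7–50.1) of the nearer distal ones and 62.8% of all WT peaks. The weighted difference was −1.73 points. For these WT peaks the fibroblast share was 18.5% (16.6–20.6) in deserts against 23.4% (22.8–24.0), a difference of −4.91 points (−6.89 to −2.78). The H3K4me2 share was 70.2% against 70.8%, a difference of −0.62 (−3.07 to 1.73), and the replicate 1 share was 42.4% against 44.5%, a difference of −2.07 (−4.64 to 0.54).

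Deserts differed in how far their peaks were shared. Among the 68 deserts with 5 or more desert peaks, which held 590, the share with a fibroblast peak ranged from none to all, with a median of 15.4%. In 23 deserts, with 154 peaks in all, no peak had a fibroblast partner, and the largest of these was the desert upstream of Sox9 with 16. Over all desert peaks, 82.6% had no fibroblast peak, and whether 23 deserts are more than that share gives was not tested. The share with a WT peak had a median of 57.1%, and 5 deserts had none, where 51.1% of all desert peaks had no WT peak. H3K4me2 was found at more than 50% of the peaks in all 68 deserts, with a lowest share of 57.1%. In the 10 fullest deserts together, 22.95% (17.1–29.7) of the peaks had a fibroblast peak and 56.3% (48.8–63.6) a WT peak, against 16.4% (14.2–18.8) and 47.6% (44.5–50.7) in the other deserts. Where a desert held a single peak, a WT peak was found at 33.9% (26.97–41.4) of 177.

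The genes beside the deserts were grouped by lists of known function, which were chosen with earlier results of these data known. The counts below are therefore descriptions. Of 45 chondrocyte and skeletal regulators, 20 flanked 27 deserts, and 20 of these deserts held a desert peak (74.1%), against 36.8% of all 1118. They held 106 peaks in 9.98 Mb, or 10.6 per Mb, and a median of 3 peaks a desert, where all deserts had 2.01 per Mb and a median of 0. Of the 106 peaks, 95 carried H3K4me2 (89.6%), 60 a WT peak (56.6%) and 11 a fibroblast peak (10.4%). Over all desert peaks these shares were 84.6%, 48.9% and 17.4%. In the same deserts H3K4me2 had 28.5 peaks per Mb, WT 13.6, the deletion 7.52 and fibroblasts 3.41, against 7.64, 2.48, 1.37 and 1.24 over all deserts. All lists, fibroblasts included, were thus denser beside these genes than over all deserts.

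The skeletal regulators with most peaks were Trps1 with 18 in 2 deserts, Sox6 with 17, Runx1 with 15, Sox9 with 14 and Runx2 and Zfp521 with 6 each. Trps1 encodes a GATA-type repressor of growth plate chondrocytes, Runx2 the master regulator of osteoblasts and hypertrophic chondrocytes, and Zfp521 a zinc finger protein that antagonises Runx2. Of the 18 peaks beside Trps1, 5 had a WT peak and 2 a fibroblast peak, and all 6 beside Zfp521 had a WT peak and none a fibroblast peak. No desert peak lay beside Wnt5a and Nfia.

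Of 36 dermal and limb mesenchyme regulators, 17 flanked 19 deserts, 15 of which held a desert peak (78.95%). That share was 74.1% beside skeletal regulators and 36.8% over all deserts. These deserts had 39 peaks, or 4.14 per Mb, and 10 of them carried a fibroblast peak (25.6%). The fibroblast list itself had 5.52 peaks per Mb there, above its 3.41 beside skeletal regulators. Zeb2, a repressor of epithelial genes, had 11 desert peaks, 4 with a fibroblast peak, and Klf4, a regulator of skin barrier and stem cells, had 7, 3 with a fibroblast peak. Tbx18 had 4, Tbx3 had 3, and Meis1 and Zeb1 had 2 each. Deserts beside cartilage matrix genes were few. Only 4 of 30 such genes flanked a desert. Of their 6 deserts, 2 held a desert peak (33.3%), against 36.8% of all deserts. Hapln1, which encodes cartilage link protein, had 4 desert peaks in 319 kb. All 4 had H3K4me2, 1 had a WT peak, 1 a deletion peak and none a fibroblast peak, which 82.6% of all desert peaks also lacked. Has2, a hyaluronan synthase, had 1 desert peak, and Col11a1 and Matn1 had none.

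Deserts beside neuronal genes held few peaks for their length. Of 50 neuronal genes, 43 flanked 79 deserts, which added up to 93.1 Mb. Of the deserts, 27 (34.2%) held a desert peak, close to the 36.8% of all deserts. They had 57 peaks in all, or 0.613 per Mb against 2.01. Of these 57, 10 had a WT peak (17.5%) and 43 an H3K4me2 peak (75.4%). Csmd3, which encodes a membrane protein of the brain, had the most with 13, but 12 of them lay in the desert that it shares with Trps1. Lrrtm3, a synaptic adhesion protein, came next with 5, followed by Pcdh17 and Lsamp with 4 each, and Nlgn1, Cntnap5a, Pcdh9 and Grik2 with 3 each. WT had 0.258 peaks per Mb in these deserts, and fibroblasts 0.226.

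**Figure D5:**
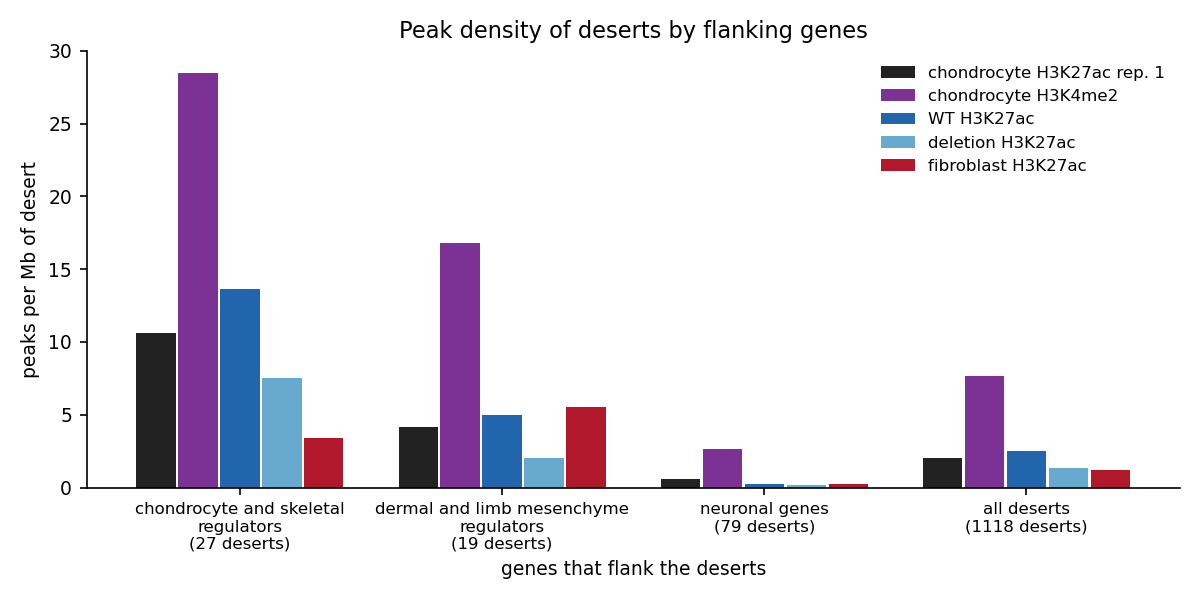
Peaks per Mb of desert (vertical axis) for 5 lists in deserts grouped by the genes that flank them (horizontal axis), with all 1118 deserts for comparison. Each bar is 1 density over the summed length of the deserts. Replicate 1 had 10.6 peaks per Mb beside skeletal regulators, 4.14 beside dermal and limb regulators, 0.613 beside neuronal genes and 2.01 over all deserts.

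Replicate 2 of chondrocyte H3K27ac carried coordinates of GRCm38 and was placed by the flanking genes. Of the deserts, 549 could be matched to RefSeq genes of GRCm38 with a length within 1 kb, and they held 614 desert peaks. At 186 of them a replicate 2 peak lay at the same distance from the flanking TSS, to within 1 kb, or 30.3% (26.7–34.1). At the same 614 peaks, WT had a partner at 51.1% (47.1–55.2), the deletion at 34.4% (30.6–38.3), fibroblasts at 18.1% (15.1–21.4) and H3K4me2 at 83.2% (80.0–86.1). These last shares need an overlap by coordinate and allow no 1 kb, so the measures differ. Peaks shared with WT were also more often found in replicate 2, at 51.0% (45.3–56.6) of 314 against 8.67% (5.74–12.4) of 300 without WT. The direction was the same for peaks shared with fibroblasts, at 49.55% (39.92–59.2) of 111 against 26.04% (22.26–30.11) of 503 without. For H3K4me2 the shares were 34.83% (30.7–39.14) of 511 and 7.77% (3.41–14.73) of 103. These contrasts were not matched for score. Over all desert peaks, the share with a WT peak was 29.6% in the lowest quintile of score and 81.9% in the highest. Replicate 2 had 236 peaks in all in these 549 deserts. In the 2 deserts beside Sox9, replicate 2 had a peak at the same distance from the Sox9 TSS for 8 of 16 upstream and 8 of 14 downstream peaks. The upstream desert was not among the 549 matched, so its distances had no check by length. By gene records in each build, 3.87% (3.61–4.14) of replicate 2 peaks and 6.56% (6.26–6.87) of replicate 1 peaks lay over 200 kb from every TSS. The records were those of GENCODE for replicate 1 and of RefSeq for replicate 2. For 1489 of 21627 RefSeq genes both ends were used as TSS, for want of a strand, which can only lower the share. The 2 lists also differ in length, format and score scale, and the part of each in this gap was not tested.

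The counts of peaks per desert were compared between lists. Spearman's rho of the replicate 1 count with that of another list was 0.70 for H3K4me2, 0.69 for WT, 0.62 for the deletion and 0.48 for fibroblasts over the 1118 deserts, and 0.63 for replicate 2 over the 549 matched ones. With the length of the desert it was 0.35. The deserts share their length and mappable sequence in each pair, so these values describe the lists and have no test.

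Desert peaks were poorer in G and C than nearer distal peaks. The 300 bases around the midpoint had a mean GC content of 40.4% ± 6.64 (SD over 1213 peaks) against 45.2% ± 7.39 over 13216 nearer distal peaks. Desert sequence under no peak of any mm9 list, cut into 1944950 tiles of 300 bases, had 38.7% ± 6.66, and the 32841 RefSeq promoters of GRCm38 had 53.8% ± 11.3. No CpG was found in 16.3% of desert peaks, 8.29% of nearer distal peaks and 27.4% of the tiles. Among desert peaks, those with a fibroblast peak had 44.1% GC and those without had 39.6%. Those found in no other list had 36.5%.

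The motifs were counted in the same windows. An AP-1 match was found in 14.2% (12.3–16.3) of desert peaks and 13.8% (13.2–14.4) of nearer distal peaks, both above the 8.95% of desert tiles and 7.81% of promoters. A TEAD match was found in 20.2% (17.97–22.6) and 19.5%, against 16.3% of tiles and 14.7% of promoters. An NFI half-site was found in 44.9% (42.1–47.8) and 45.4%, against 35.5% of tiles and 46.7% of promoters. A SOX match was found in 39.3% (36.6–42.1) of desert peaks and 34.2% (33.4–35.0) of nearer distal peaks, but the tiles had 42.1% and promoters 28.6%. RUNX matches were rarer in desert peaks, at 17.5% (15.4–19.7) against 21.6% (20.9–22.3), with 17.7% of tiles and 16.8% of promoters. The E-box was found in 11.95% (10.2–13.9) against 16.6% (15.96–17.2), with 7.91% of tiles and 16.3% of promoters. With nearer distal peaks weighted to the GC content of desert peaks, their shares were 36.7% for SOX, 20.6% for RUNX and 12.6% for the E-box. The tiles at that GC content had 41.2%, 17.98% and 8.86%, and the promoters 41.1%, 18.5% and 11.3%.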

How the data were processed

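ChIP-Seq peaks of 6 libraries were used, and the input library was not analysed here. Per the labels and methods, the authors trimmed reads with fastp, aligned them to mm9 with Bowtie2 2.4.4 and called peaks against input with MACS2 2.2.4, for each library separately. The deposited lists give a score per peak, and 3 of them (replicate 2, WT and the deletion) also give the authors' fold enrichment, a ratio to background. Scores rank peaks within a list only. The coordinates of replicate 2 were those of GRCm38, so it was compared by distance from flanking genes, with no conversion. No list gives depth.

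TSS were the 5′ ends of all transcripts of 22350 protein-coding genes (GENCODE, mm9), at 71940 positions. Overlap meant at least 1 bp. Shares have exact binomial (Clopper-Pearson) and differences Newcombe 95% intervals. Nearer distal peaks were weighted to the desert peaks by quintiles of score and width. With 1 library a group no test was made, and chondrocyte H3K27ac replicates were not averaged. By the description of the study, the chondrocyte H3K27ac replicates were biological, and the WT and deletion chondrocytes came from littermates. Whether 1 MACS2 version and threshold made all lists is not given in the sources used here.

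Named were the 10 fullest deserts, the 5 densest with 5 or more peaks and the desert upstream of Sox9. Peaks named were the highest-scoring of each of the 10, the 5 highest, the one at E308, the 3 highest with a fibroblast peak, the 3 highest in no other list and the 3 on each side of 200 kb. Up to 6 flanking genes, and ties, were named per list. Some genes that this rule selects are not reported here. Members and lists were chosen with earlier results of these data known. Of 45, 30, 36 and 50 listed genes, 45, 27, 34 and 50 were annotated. Promoters were those of RefSeq. Overlaps were computed in numpy 2.4.6 under Python 3.11.15 and compared with bedtools 2.31.1, tables were handled in pandas 2.3.3, intervals came from scipy 1.17.1 and plots from matplotlib 3.10.9, and the overlap code was tested on simulated data. Alternatives were other distances, TSS sets, overlaps, list lengths, weightings and windows.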

Additional observations from a re-analysis of the deposited data

Results flagged for a closer look

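Peaks in the regions left out were looked at separately, because they count neither as desert, nearer distal nor promoter peaks. Those of replicate 1 do count among all 25580 of its peaks, and an alternative put the regions back. Replicate 1 had 27 peaks within 100 kb of the first assembled base or at 98 to 99 Mb of chromosome 2, with a highest score of 3100.0, where the highest elsewhere was 2432.8. None of the 27 lay over 200 kb from every TSS. H3K4me2 had 28 such peaks, fibroblasts 23, WT 10 and the deletion 8. Of the 27 replicate 1 peaks, 25 overlapped an H3K4me2 peak, 17 a fibroblast peak, 9 a WT peak and 8 a deletion peak.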

How the results depend on the processing

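The differences from nearer distal peaks were negative under every alternative run for fibroblasts (12, of which cutting lists to the shortest changes nothing, since theirs is the shortest), WT (11) and the deletion (13), and under 11 of 12 for H3K4me2, whose interval included 0. The 11 for WT leave out WT peaks as members, a setting counted for the other lists. With that exchange of roles, the replicate 1 share differed by −2.07 points (−4.64 to 0.54), an interval that included 0. Weighted to WT score, that difference was −0.48 points. No paired analysis was possible because only chondrocyte H3K27ac had a second replicate and no test was made. The desert share of replicate 1 (4.74%) was 6.56% with gene records, 10.95% at 100 kb, 0.989% at 500 kb, 3.23% in the higher-scoring peaks and 5.09% with transcripts typed protein-coding (added after seeing the data). Without replicate 1, replicate 2 gave 3.87% with RefSeq gene records of GRCm38. The nearest value of replicate 1 is the 6.56%, which rests on another annotation. At 500 kb the shares were 81.4% for H3K4me2, 41.5% for WT and 26.9% for the deletion, and the differences −4.93, −19.2 and −18.3 points. At 100 kb, WT was 52.6% and the deletion 36.9%, with a difference of −9.77. With 50% reciprocal overlap the shares were 43.1% for H3K4me2, 8.57% for fibroblasts, 27.5% for WT and 14.8% for the deletion, and the differences of the last 3 were −5.18, −7.23 and −8.21. Within 1 kb the 4 shares were 87.3%, 20.9%, 52.2% and 35.7%. With the higher-scoring peaks of the other list they were 54.5%, 6.76%, 24.65% and 12.3%, with differences of −5.60 for fibroblasts and −9.59 for the deletion. With lists at the shortest length, H3K4me2 was 30.6% (difference 0.251), WT 29.8% and the deletion 24.5%. With gene records the deletion share was 34.7%. Outside gene bodies the differences were −15.0 for fibroblasts and −16.75 for the deletion. Weighted, they were −8.13 for WT and −9.48 for the deletion, or −2.66 among peaks with a WT peak (added). With WT peaks as members, H3K4me2 was 70.2%, the deletion 45.2%, and the differences −4.91 for fibroblasts and −4.17 for the deletion. The 10 fullest deserts held 34.4% at 500 kb and 19.25% of WT peaks. In 500-base windows the motif shares were 55.9% for SOX, 25.8% for AP-1, 29.0% for RUNX, 30.8% for TEAD, 63.3% for NFI and 18.96% for the E-box. The causes were not tested. Depth is unknown, so a peak missing from a list sets no upper limit on the mark there.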

Other observations

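The 707 deserts without a replicate 1 peak, 291.2 Mb in all, were not empty in every list. H3K4me2 had a peak in 358 of them (50.6%), fibroblasts in 92 (13.0%), WT in 62 (8.77%) and the deletion in 24 (3.39%). Fibroblast H3K27ac was fullest elsewhere, between Rad51l1 and Zfp36l1, which encodes an mRNA-destabilising zinc finger protein, with 22 peaks. H3K4me2 was fullest between Myc and Gsdmc, with 42 peaks.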
